A study of Mus musculus with 2 samples.

Results

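Gja1, Gjb2, Gjb5 and Gjb6, 4 connexin genes of skin, were followed in single-cell RNA-seq of mouse dorsal skin. They are 4 of the 32285 genes in the deposited tables, were found by their symbols, and were counted in each cell class of 2 libraries. One library held skin of male C3H/HeN mice given vehicle (control), and the other held skin of the androgenetic alopecia (AGA) model, mice of the same strain, sex and age injected subcutaneously with testosterone propionate (TP) at a daily dose of 0.5 mg. Treatment began at an age of 7 weeks and skin was taken at 9 weeks, and the skin of 15 mice per group was pooled into 1 library. Hence there was 1 library per condition, no test between conditions could be made, and every interval given here is a 95% interval for counting error only, not for differences between mice, dissociations or libraries. A group that also received an antibody was not analysed here.

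Connexins are membrane proteins that assemble in rings, and the rings of neighbouring cells dock to form gap junctions, through which ions and small metabolites pass. Gja1 is the most widely used connexin of skin, and keratinocytes, papilla cells and fibroblasts all make it. Gjb2 and Gjb6 are close relatives that can share a channel. Mutations of GJB2 in people can cause deafness, only some of them with thickened skin, and mutations of GJB6 can cause Clouston syndrome, in which hair, nails and palms are affected. Gjb5 is known as a connexin of differentiating epidermis.

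The genes lie at 3 places in the GRCm38.p6 assembly, as RefSeq gives it. Gja1 (ENSMUSG00000050953) spans chr10:56377300-56390419 on the plus strand. Gjb2 (ENSMUSG00000046352, chr14:57098602-57104702) and Gjb6 (ENSMUSG00000040055, chr14:57123301-57133611) are neighbours on the minus strand, with 18598 bases between them. Gjb5 (ENSMUSG00000042357, chr4:127354809-127358164) lies on the minus strand.

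The 250 bases that precede each RefSeq start are shown 5′ to 3′ on the gene's strand, because Gjb2 and Gjb6 followed each other across cell classes while Gjb5 followed neither. Gja1, on another chromosome, also followed Gjb2 and Gjb6, so nothing particular to the neighbours is read from this. Capitals mark matches on either strand to 4 short motifs. The TATA box was searched as TATAAA and the GC box as GGGCGG. The AP-1 site was searched as TGANTCA, and the half-site of steroid receptors as AGAACA.
Gja1, chr10:56377050-56377299, plus strand: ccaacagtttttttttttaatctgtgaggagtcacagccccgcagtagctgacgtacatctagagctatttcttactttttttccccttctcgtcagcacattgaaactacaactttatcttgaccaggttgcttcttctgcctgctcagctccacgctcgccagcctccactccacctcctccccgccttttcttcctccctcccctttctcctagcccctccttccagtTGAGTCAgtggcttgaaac
Gjb2, chr14:57104703-57104952, minus strand: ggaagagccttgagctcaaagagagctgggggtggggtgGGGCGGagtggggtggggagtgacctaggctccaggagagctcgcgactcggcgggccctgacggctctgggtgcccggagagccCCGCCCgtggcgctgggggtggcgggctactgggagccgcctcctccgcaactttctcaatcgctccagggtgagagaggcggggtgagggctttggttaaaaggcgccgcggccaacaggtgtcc
Gjb6, chr14:57133612-57133861, minus strand: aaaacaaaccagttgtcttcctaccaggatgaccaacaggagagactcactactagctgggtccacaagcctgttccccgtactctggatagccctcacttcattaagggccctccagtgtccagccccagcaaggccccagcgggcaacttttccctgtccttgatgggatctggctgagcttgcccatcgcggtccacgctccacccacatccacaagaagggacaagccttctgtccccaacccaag
Gjb5, chr4:127358165-127358414, minus strand: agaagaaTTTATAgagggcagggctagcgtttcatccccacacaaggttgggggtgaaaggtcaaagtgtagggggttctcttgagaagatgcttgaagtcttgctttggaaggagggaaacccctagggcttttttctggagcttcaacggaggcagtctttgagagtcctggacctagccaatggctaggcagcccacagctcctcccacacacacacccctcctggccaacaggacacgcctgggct
The Gja1 window held 1 AP-1 match, the Gjb2 window 2 GC box matches and the Gjb5 window 1 TATA box match on the opposite strand, 243 to 238 bases before the start. The Gjb6 window held none of the 4. Over 32851 RefSeq windows of the same length, 12.4% held TATAAA, 32.7% GGGCGG, 6.75% TGANTCA and 16.1% AGAACA. The share of G and C was 69.2% for Gjb2, 56.8% for Gjb6 and 54.4% for Gjb5, beside a median of 52.4% over all windows, and Gja1 was below that median. A match is a description of the letters and says nothing of binding.

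After the limits on genes and mitochondrial counts and the removal of doublets, 39076 control cells (107203841 UMIs, median 2051 per cell) and 18542 TP cells (134363159 UMIs, median 4879.5 per cell) were kept. A UMI (unique molecular identifier) marks 1 captured RNA molecule. The mitochondrial limit was exceeded by 3465 of 45709 control barcodes and 5871 of 25931 TP barcodes, so it acted unequally on the libraries. Clustering gave 36 clusters and subclusters, of which 28 were named after 17 classes from fixed marker genes and 8 stayed unnamed, and 24 classes or unnamed clusters were large enough to compare. The markers of a class were all above the rest of the library in 13 of 17 classes, and in IFE spinous-like cells (IFE, interfollicular epidermis) of the TP library this was so for 2 of 6. Cell composition differed widely. Inner root sheath-like cells, which mould the growing hair, made up 15.2% of control and 4.55% of TP cells, whereas IFE granular-like cells, the last living layer of the epidermis, made up 3.44% and 9.50%, and outer bulge-like cells, named for the region that holds follicle stem cells, 1.62% and 8.74%. The libraries shared 303 cell barcodes, 181 of them among kept cells.

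Over all kept cells, 3 of the 4 connexins were lower in the TP library and 1 was higher, where the interval of the ratio lay below 1 for 55.9% of all genes with at least 50 UMIs and above 1 for 27.8%. Gja1 stood at 752 per 1000000 UMIs (CPM) in control and 309 in TP, with a TP over control ratio of 0.410 (0.406 to 0.415). Gjb2 had 156 CPM in control and 78.8 in TP (ratio 0.507, 0.495 to 0.519), and Gjb6 19.4 and 9.33 (ratio 0.482, 0.449 to 0.517). Gjb5 went the other way, from 43.4 to 128 CPM (ratio 2.96, 2.86 to 3.05). With a pseudocount of 0.1 per 10000 UMIs, 2 of the 4 members, Gja1 and Gjb5, differed at least 2-fold, as did 2.50% of all 17576 genes with at least 50 UMIs. Gjb6, with a ratio of 0.482, was at -0.60 on the log2 scale with the pseudocount and was not called. When each cluster was given its share of control UMIs in both libraries, the ratios moved to 0.612 for Gja1, 0.916 for Gjb2, 0.728 for Gjb6 and 1.73 for Gjb5, so the class shares and the levels within classes both differed between the libraries.

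The cells that held each connexin are shown by the plot of UMI shares. Inner root sheath-like cells held 30.9% of Gjb2 and 30.2% of Gjb6 UMIs in control, and 20.5% and 15.0% in TP. Of the Gja1 UMIs, the same cells held 19.9% in control and 9.24% in TP. In TP other classes held more: IFE granular-like cells had 16.9% of Gjb6 and 9.67% of Gja1, and outer bulge-like cells 10.4% of Gja1. In IFE granular-like cells of TP, the levels of both genes (6.89 CPM of Gjb6 and 130 of Gja1) were not above the lymphocyte-like background described below. They were above the myeloid-like one. Gjb5 was concentrated in IFE granular-like cells, with 54.7% of its UMIs in control and 67.4% in TP. These cells took 10.7% of all UMIs in control and 22.9% in TP, while inner root sheath-like cells took 14.2% and 3.94%.

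**Figure D1:**
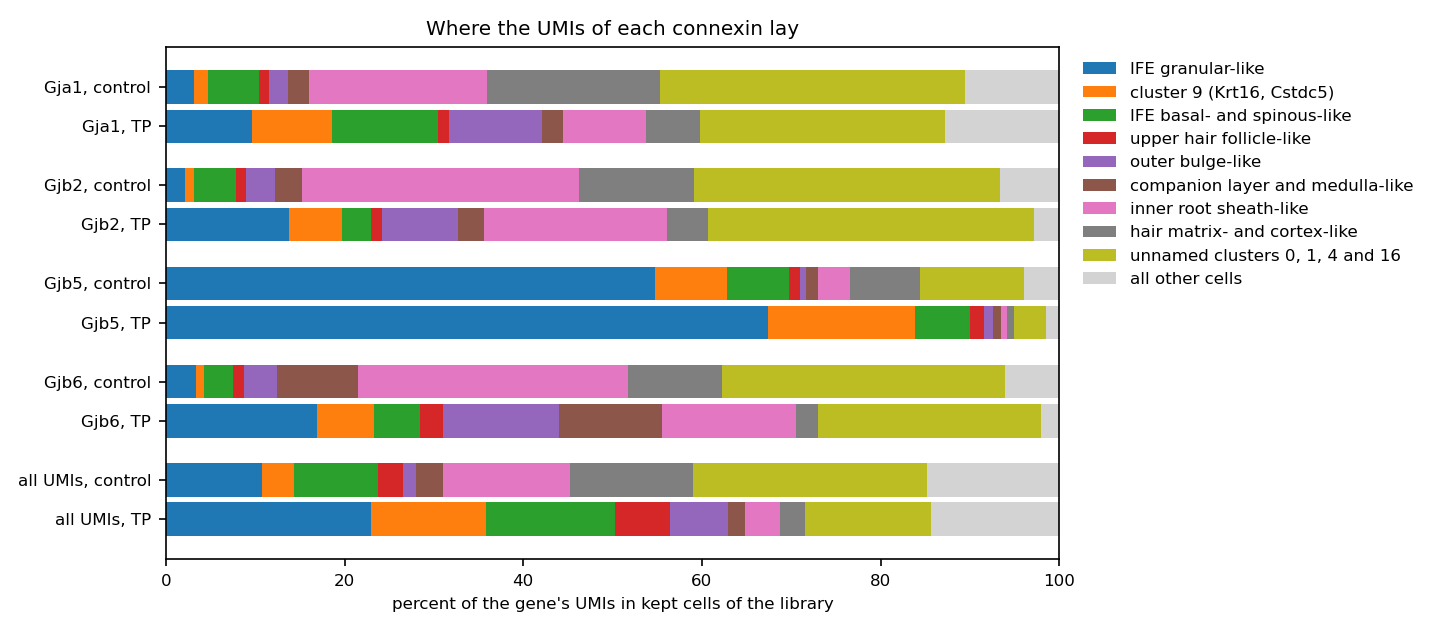
Percent of each gene's UMIs in kept cells (x axis) by cell class (colours), with control above TP for each gene and all UMIs of the library in the lowest pair. Gjb5 sits mainly in IFE granular-like cells in both libraries, 54.7% in control and 67.4% in TP, while the other members are spread over many classes, with inner root sheath-like cells the largest named group of Gja1, Gjb2 and Gjb6 in control but not of Gja1 and Gjb6 in TP.

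RNA that is free in the cell suspension adds UMIs to every droplet, and the background it left differed between the libraries. Lymphocyte-like cells, which should hold no keratinocyte keratins, carried 1061 CPM of Krt71 of the inner root sheath in control (974 to 1154) and 251 in TP (183 to 336), whereas the epidermal keratins Krt10 (1120 and 1888) and Krt14 (486 and 832) were higher there in TP. In myeloid-like cells all 3 keratins were lower in TP, with Krt71 at 543 and 87.3 CPM, Krt10 at 1734 and 1261 and Krt14 at 463 and 284, so the direction of the epidermal keratins depended on the class read. Lymphocyte-like cells carried Gja1 at 488 CPM in control (429 to 552, 250 UMIs) and 123 in TP (77.0 to 186, 22 UMIs). For Gjb2 the values were 113 CPM (85.9 to 146) and 44.7 (19.3 to 88.1). Gjb5 was at 9.76 CPM (3.17 to 22.8) and 16.8 (3.46 to 49.0, 3 UMIs), and Gjb6 at 7.80 (2.13 to 19.98) and 5.59 (0.141 to 31.1). Levels that overlap or lie below these intervals are read here as background. The limit is per UMI of the class and takes no account of depth. Lymphocyte-like cells had means of 1949 UMIs in control and 2632 in TP, and IFE granular-like cells 8538 and 17485. A level read as background is therefore not shown to come from free RNA, least of all in deep classes. The class was not pure in TP, where its 68 cells carried the 8 myeloid markers at a sum of 989 CPM, against 13.7 in control. Myeloid-like cells, taken as a second reference after the data were seen, had 346 CPM of Gja1 in control (279.96 to 423) and 65.3 in TP (53.2 to 79.3), and 61.9 (36.1 to 99.1) and 13.6 (8.40 to 20.8) of Gjb2. Their Gjb5 was at 21.9 CPM (8.02 to 47.6) and 16.8 (10.98 to 24.6), and their Gjb6 at 3.64 (0.0922 to 20.3) and 1.29 (0.157 to 4.67). In both classes, Gja1 and Gjb2 were lower in TP. Endothelial-like cells had been planned as a further background for the Gjb genes. They had 82.5 CPM of Gjb2 in control (54.3 to 120) and 31.9 in TP (20.2 to 47.8), and 9.16 and 9.70 of Gjb5. Their Gjb6 was at 18.3 CPM in control (6.73 to 39.9), with no UMI in TP. The background was not equal in every class, since in control the Gja1 level minus that of lymphocyte-like cells was -265 CPM in IFE granular-like cells (-330 to -205), -209 in upper hair follicle-like cells (-276 to -148) and -142 in myeloid-like cells (-234 to -44.99). Subtracted values are therefore differences from 1 reference class and not corrected levels.

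Gja1 lay above the lymphocyte-like interval in 9 of 23 other classes and unnamed clusters in control and in 16 of 23 in TP, and above the myeloid-like interval in 17 and 19. Its highest level was in the unnamed cluster 16, at 1417 CPM in control (1382 to 1453) and 858 in TP (830 to 887), apart from every other class in both libraries. Cluster 16 was led by Acsm3, Slc27a6 and S100a3, and its best scoring markers were those of the inner root sheath. Its leading genes also held Vsig8 and Dsg4 of the hair shaft, and Prr9 and Crym, which led an inner root sheath-like cluster too. In control there followed the unnamed cluster 0, shallow cells led by haemoglobin genes (median 813 UMIs in control and 686 in TP), at 1177 CPM (1147 to 1209), outer bulge-like cells at 1155 (1102 to 1210), hair cortex-like cells at 1077 (1054 to 1101), inner root sheath-like cells at 1056 (1039 to 1072) and hair matrix-like cells at 1030 (1007 to 1054). Cluster 0 and outer bulge-like cells could not be ordered by their intervals, nor could the last 3. In TP the order after cluster 16 was inner root sheath-like cells at 725 CPM (702 to 748), hair matrix-like at 692 (653 to 732) and hair cortex-like at 656 (621 to 692). Of 23 pairs of neighbours in the order, 18 overlapped in control and 17 in TP. IFE granular-like cells had the lowest control level, 223 CPM (214 to 232), and upper hair follicle-like cells the lowest TP level, 63.3 (58.0 to 69.1). Both are below the lymphocyte-like intervals of their library and not above the myeloid-like ones. In TP, IFE granular-like cells had 130.3 CPM, which was not above the lymphocyte-like interval but lay above the myeloid-like level by 65.0 (50.4 to 77.7).

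Within classes, the Gja1 ratio of TP over control was below 1, interval included, in 17 of 17 named classes, the lymphocyte-like cells among them (0.252, 0.155 to 0.390). When edgeR's TMM factors were applied, it was so in 16 of 17, since dermal fibroblast-like cells turned from 0.814 (0.686 to 0.972) to 1.05 (0.881 to 1.249). In inner root sheath-like cells, the named class with most Gja1 UMIs in control and over both libraries though not in TP, the ratio was 0.687 (0.663 to 0.711). The level above lymphocyte-like cells there was 568 CPM in control (501 to 629) and 602 in TP (535 to 653), 1.06 times as large in TP with overlapping intervals, so the lower level of TP was not seen in this difference. Above myeloid-like cells it was 709 CPM in control (631 to 778) and 659 in TP (633 to 686), 0.929 times, with overlapping intervals. Hair matrix-like cells had 543 CPM above lymphocyte-like cells in control (474 to 606) and 569 in TP (495 to 630), and hair cortex-like cells 589 (521 to 653) and 533 (461 to 592). Dermal papilla-like cells, the mesenchymal core of the follicle, had 555 CPM in control (542 to 569), which overlaps the lymphocyte-like interval, and 340.1 in TP (328 to 352), above it. Against myeloid-like cells they were above in both, by 209 CPM (131 to 277) and 275 (257 to 292). Different clusters held this class in the libraries: cluster 11, led by Ndnf and Rspo4, held 2312 control and 313 TP cells, cluster 10, led by Vcan and Adgrb3, 1667 and 1033, and cluster 24, led by Gpc5 and Dkk2, 39 and 303. At resolution 0.6, a cluster led by Dkk2 and Gpc5 (142 control and 414 TP cells) was named dermal sheath cup-like. The papilla name of such cells, more of them in TP, therefore depended on the resolution. Dermal fibroblast-like cells were above both references in TP and above neither in control, at 351 CPM in control (297 to 413) and 286 in TP (271 to 302).

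**Figure D2:**
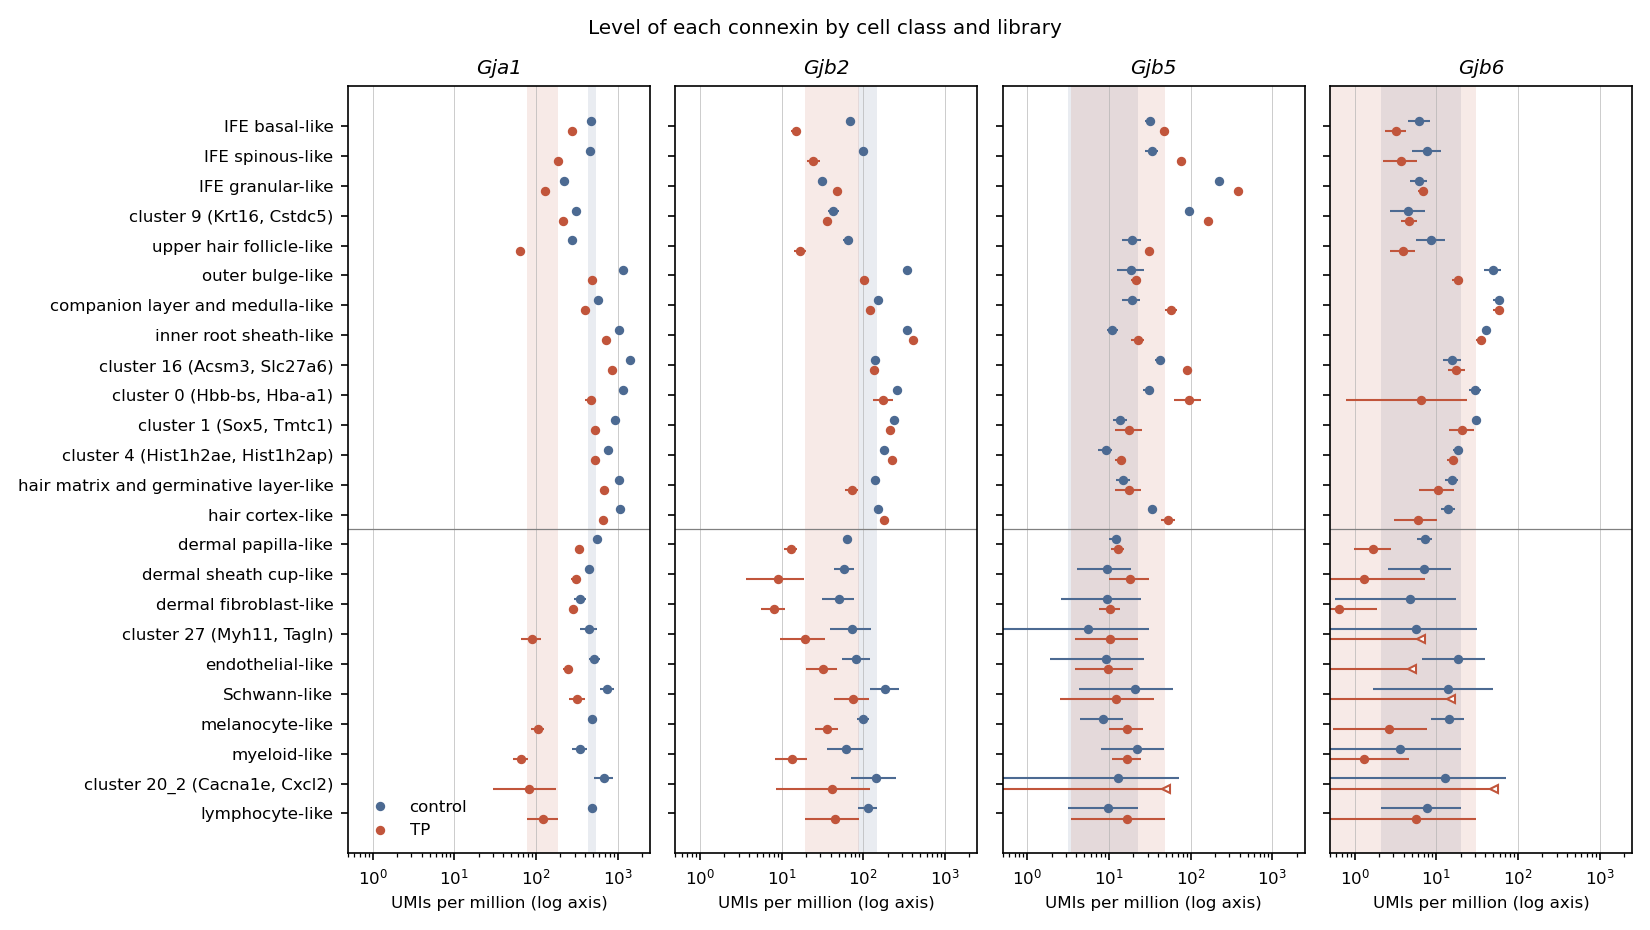
Level of each connexin in UMIs per 1000000 of the class (x axis, log scale) for epithelial classes (above the line) and other cells (below it), with control in blue and TP in red. Bars are exact Poisson 95% intervals, shaded bands the interval of lymphocyte-like cells of the same library, open triangles the upper bound where no UMI was seen, and bars that reach the left edge go on to lower values. Gja1 and Gjb2 bands lie further right in control than in TP, and Gjb5 stands clear of its bands in IFE granular-like cells and cluster 9.

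Gjb2 was high in the inner root sheath. Inner root sheath-like cells had 339 CPM in control (330.3 to 349) and 410.2 in TP (393 to 428), with a TP over control ratio of 1.21 (1.15 to 1.27). After thinning to equal depth, Gjb2 was found in the same share of these cells in both libraries, with a ratio of shares of 1.00 (0.884 to 1.13), so the higher level was not seen in detection. The 8 inner root sheath markers were also higher in these cells, with a sum of 16791 CPM in control and 24305 in TP and 8 of 8 higher. IFE spinous markers (2382 and 5513 CPM, 6 of 6 higher) and upper hair follicle markers (221 and 388, 6 of 6) were higher too, and cycling (1179 and 757, 0 of 6), hair cortex (248.5 and 66.8, 0 of 8), melanocyte (251 and 64.9, 0 of 6) and dermal papilla markers (88.4 and 30.3, 0 of 8) were lower. The part of these lists in the ratio was not tested. Both clusters of the class had the direction of the summed level, with 302 and 366 CPM in the one led by Cdh6 and Krt73 and 379 and 456 in the one led by Krt71 and Sytl2. The level above lymphocyte-like cells was 226 CPM in control (192 to 255) and 365 in TP (319 to 396), and that above myeloid-like cells 278 (239 to 305) and 397 (378 to 415). In control, outer bulge-like cells were as high as the inner root sheath, with overlapping intervals, at 348 CPM (319 to 378), while in TP the same class had rank 8 of 24, at 102 (95.3 to 109). The unnamed clusters 0 and 1, whose best scoring markers were those of inner root sheath and hair matrix, followed in control at 261 CPM (247 to 276) and 239.9 (229 to 251). Cycling cells of cluster 4 had 179.6 CPM in control (172 to 188) and 227 in TP (218 to 235). Hair cortex-like cells had 154 CPM in control (145 to 163), which overlaps the background, and 179.7 in TP (162 to 199), which does not. Epidermal classes were not above the lymphocyte-like interval in either library. IFE basal-like cells had 68.5 CPM in control and 15.0 in TP, and IFE spinous-like cells 98.6 and 24.5. IFE granular-like cells had 30.9 (27.8 to 34.3) and 47.3 (44.9 to 49.7), the latter above the myeloid-like interval of TP. Of 23 pairs of neighbours, 20 overlapped in control and 21 in TP.

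Gjb6 was highest in the companion layer and medulla-like class at 58.1 CPM in control (50.2 to 67.0) and 58.2 in TP (49.1 to 68.5). The ratio was 1.00 (0.801 to 1.249). Its markers were above the rest of the library for 4 of 6 in both libraries. In control, outer bulge-like cells (49.2 CPM, 38.8 to 61.6) could not be told apart from it, and inner root sheath-like cells followed at 41.3 (38.1 to 44.6). In TP, inner root sheath-like cells were next with 35.6 CPM (30.7 to 41.0), with a TP over control ratio of 0.862 whose interval holds 1 (0.728 to 1.02), and outer bulge-like cells had 18.4 (15.7 to 21.5). The inner root sheath ratio had no stable direction, at 1.22 with means of ln(counts per 10000 + 1) and 0.707 (0.540 to 0.916) with at most 5% mitochondrial counts. Only 5 classes or clusters in control and 1 in TP, the companion layer and medulla-like cells, stood above the lymphocyte-like interval, which rests on 4 and 1 UMIs. Against myeloid-like cells, 5 and 8 did. Against endothelial-like cells of the control (18.3 CPM, 6.73 to 39.9, 6 UMIs), only the companion layer and medulla-like class was above in control. Schwann-like and endothelial-like cells of the TP library had no Gjb6 UMI, which allows up to 15.2 and 5.11 CPM.

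Gjb5 was highest in differentiating epidermis. IFE granular-like cells were apart from all others, at 222 CPM in control (213 to 230.3) and 377 in TP (370.4 to 384), with a TP over control ratio of 1.70 (1.63 to 1.78). The unnamed cluster 9, led by the stress keratins Krt16 and Krt6b and by Sprr1b of the cornified envelope, came second in both libraries with 95.8 CPM (86.4 to 106) and 164 (158 to 169.8), with a TP over control ratio of 1.71 (1.53 to 1.91). IFE spinous-like cells had 33.5 CPM in control (27.5 to 40.4) and 76.6 in TP (69.2 to 84.6), and IFE basal-like cells 31.6 (27.5 to 36.1) and 46.7 (43.3 to 50.4). By intervals, the level in TP went up from basal- to spinous- to granular-like cells, while basal- and spinous-like cells overlapped in control. In TP, however, 2 of 6 markers of the spinous-like class were above the rest of the library. Cluster 9, whose best scoring markers were also those of IFE spinous cells, lay between spinous- and granular-like cells. No order of layers is therefore read from these classes. Outside the epidermis, cluster 16 had 42.5 CPM in control (36.7 to 49.1) and 90.5 in TP (81.6 to 100.1), and cluster 0 had 30.6 (25.9 to 36.0) and 94.6 (63.3 to 135.8). Hair cortex-like cells had 33.9 CPM in control (29.9 to 38.3) and 53.2 in TP (43.6 to 64.2). The TP values of basal and cortex cells overlap the upper bound of lymphocyte-like cells, which rests on 3 UMIs, and lie above that of myeloid-like cells. In control, the values of basal, spinous and cortex cells and of clusters 0 and 16 were not above myeloid-like cells. Gjb5 lay above the lymphocyte-like interval in 7 of 23 classes and clusters in control and 5 in TP, and above the myeloid-like one in 2, IFE granular-like cells and cluster 9, and in 9. Papilla, fibroblast and melanocyte classes were within the background in both libraries. Immune and endothelial classes served as references for it and are not read against it. The class marked by granular genes was itself not alike in the libraries: the 8 granular markers summed to 649 CPM in control and 2673 in TP, with 8 of 8 higher in TP, and the 7 basal markers to 4274 and 1799. The 6 spinous markers summed to 41242 CPM in control and 67376 in TP, with 6 of 6 higher in TP. The part of these markers in the Gjb5 ratio was not tested.

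**Figure D3:**
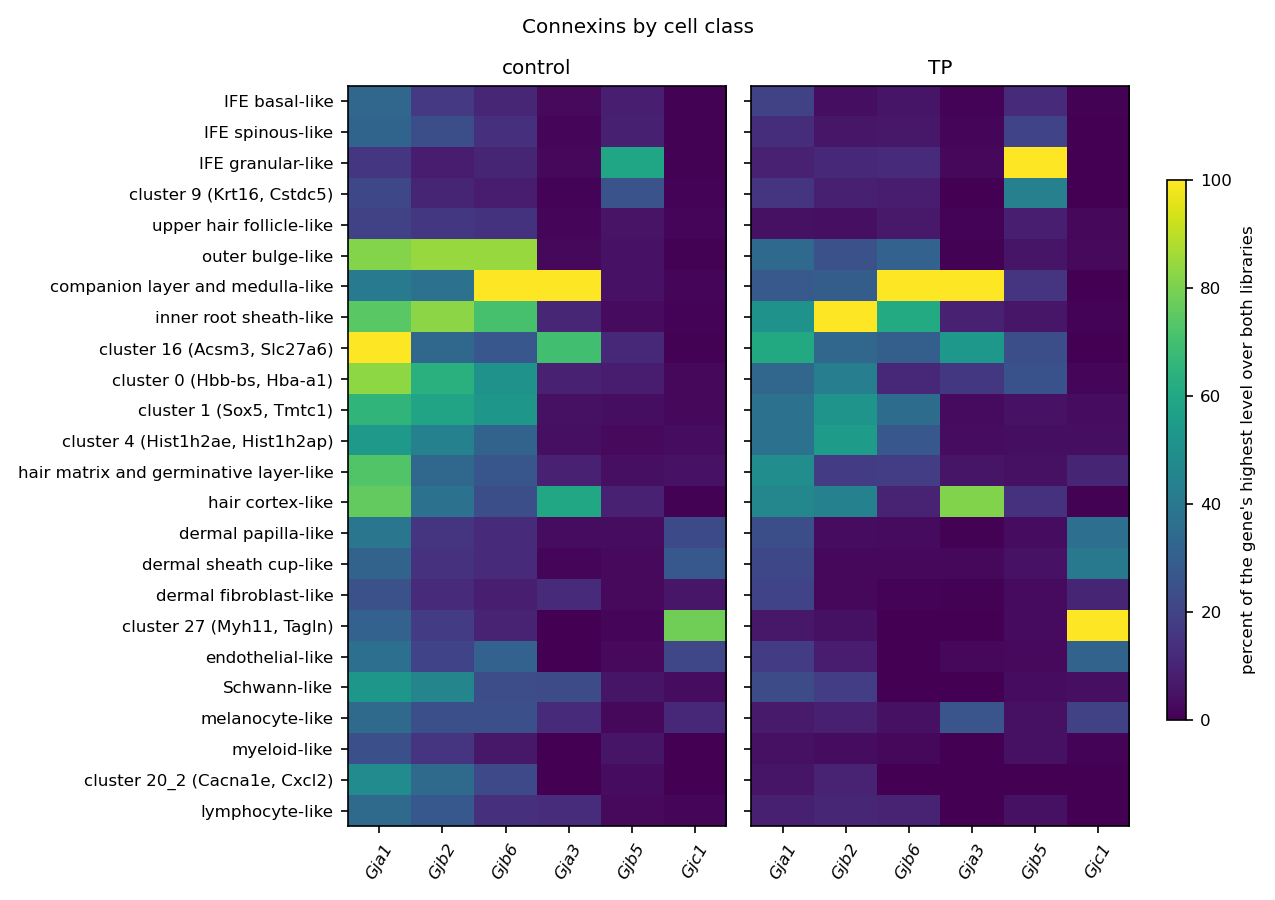
Level of 6 connexins by cell class (rows) in control (left) and TP (right), as percent of the gene's highest level over both libraries (colour scale), so that colours compare classes within a gene and not genes with each other. Gjb5 peaks in IFE granular-like cells, Gjb6 and Gja3 in companion layer and medulla-like cells, and Gjc1 in cluster 27, which is led by Myh11.

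The ratios within classes are shown by the plot of TP over control. Of 68 pairs of a member and a named class, 52 had at least 50 UMIs, and the interval of the ratio lay below 1 in 34 of them, above 1 in 10 and held 1 in 8. Over all 145759 pairs of a gene and a named class with as many UMIs, 28.0% lay below 1 and 14.3% above, and the median log2 difference of all genes was below 0 in every named class, between -0.16 and -0.02. The width of an interval depends on the UMIs of the gene, so these shares are a background and not a matched comparison. Gjb5 had 7 classes above 1 and 0 below, Gjb2 had 3 above and 12 below, Gjb6 had 0 above and 5 below, and Gja1 had 17 below. With TMM factors, which lay between -0.36 and -0.02 on the log2 scale (TP over control), these counts were 7 and 0 for Gjb5, 3 and 12 for Gjb2, 1 and 5 for Gjb6, and 0 and 16 for Gja1. At least 2-fold differences were met by 20 pairs, 19 lower and 1 higher in TP. The share of all genes that met the same rule lay between 0.773% in inner root sheath-like and 11.8% in lymphocyte-like cells, and is given by class below. No such share was computed for TMM factors or for a higher pseudocount. TMM factors also gave 20 pairs, but 17 lower and 3 higher, with 18 in common: Gjb5 in IFE granular-like and IFE spinous-like cells was gained as higher, and Gjb6 in outer bulge-like and Gja1 in endothelial-like cells were lost. With a pseudocount of 1 per 10000 there were 7 lower and 0 higher, all among the 20. Among the 19 lower, 4 had a control level above the lymphocyte-like interval, and 3 of these 4 were Gja1, Gjb2 and Gjb6 in outer bulge-like cells. Against myeloid-like cells of the control it was 8 of the 19, the same 4 (the fourth is Gja1 in Schwann-like cells) and Gja1 in IFE spinous-, endothelial-, lymphocyte- and melanocyte-like cells.

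**Figure D4:**
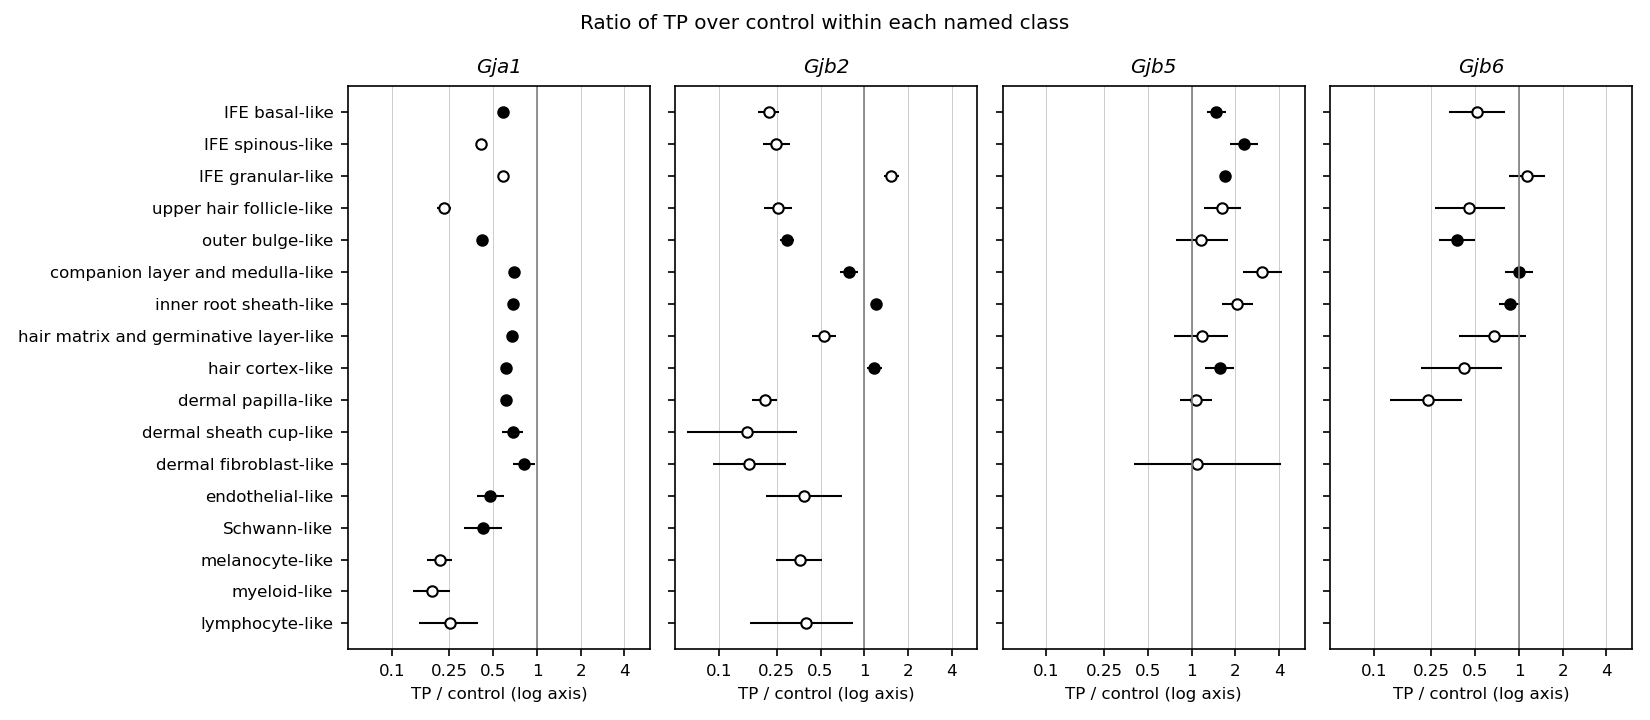
Ratio of TP over control for each connexin (panels) in each named class (rows) with at least 50 UMIs, with the exact 95% counting interval (bars), on a log axis with a line at 1. Filled points are classes whose level lay above lymphocyte-like cells of the same library in at least 1 library, and open points those at or below it in both. Gjb5 points lie at or right of the line, and those of Gja1 all lie left of it, that of dermal fibroblast-like cells only without TMM factors.

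The pseudocount of the 2-fold rule draws low levels towards no difference. The shares of all genes thus include low genes that could hardly be called, and are not matched to the members' levels. The pseudocount also left Gjb6 in dermal papilla-like cells (ratio 0.236, 0.129 to 0.406) and Gjb5 in inner root sheath-like cells (2.07, 1.62 to 2.63) uncalled. Neither was above either reference in either library. Read against all genes, the counts by class were as follows. In outer bulge-like cells 3 of the 4 members differed at least 2-fold, beside 2.22% of the genes tested there. IFE spinous-like cells had 2 (Gja1 and Gjb2, beside 2.36%), upper hair follicle-like cells 2 (the same genes, beside 1.15%) and IFE basal-like cells 1 (Gjb2, beside 1.04%), all in classes whose control level was not above lymphocyte-like cells. The 1 higher call was Gjb5 in companion layer and medulla-like cells, with 18.97 CPM in control and 57.8 in TP (48.7 to 68.1, ratio 3.05, 2.25 to 4.17), beside 2.21%. Its TP level touched the lymphocyte-like interval and lay above the myeloid-like one. No member was called in inner root sheath-like (0.773%), hair matrix-like (1.06%), hair cortex-like (1.64%) or IFE granular-like cells (1.66%), although with TMM factors Gjb5 in IFE granular-like cells was called higher (ratio 2.17, 2.08 to 2.27). Among the other classes, Gjb2 was called in dermal papilla-like (3.38%), dermal fibroblast-like (4.83%) and dermal sheath cup-like cells (7.55%), and Gja1 in Schwann-like (7.90%) and myeloid-like cells (10.5%). Both were called in melanocyte-like (9.28%), lymphocyte-like (11.8%) and endothelial-like cells (5.76%). Every one of these calls was lower in TP, and of these classes only Schwann-like cells had a control level above the lymphocyte-like interval, with 752 CPM of Gja1 (617 to 907) against 322 in TP (254 to 402).

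In outer bulge-like cells 3 connexins were lower in TP, and each had a control level above the lymphocyte-like and myeloid-like references. For Gjb6 the control level (38.8 to 61.6 CPM) overlapped that of endothelial-like cells (18.3, 6.73 to 39.9), the other background planned for the Gjb genes. Gja1 went from 1155 CPM to 486 (472 to 501), and the ratio was 0.421 (0.398 to 0.445). Gjb2 went from 348 to 102 CPM with a ratio of 0.293 (0.263 to 0.327). Gjb6 went from 49.2 to 18.4 CPM with a ratio of 0.374 (0.283 to 0.498). Above lymphocyte-like cells, Gja1 had 667 CPM in control (584 to 748) and 364 in TP (299 to 412), Gjb2 234 (190.5 to 275) and 57.2 (13.3 to 83.5), and Gjb6 41.4 (25.3 to 55.0) in control, while its TP level was not above the lymphocyte-like interval. Above myeloid-like cells, Gja1 had 809 CPM (716 to 895) and 421 (401 to 440.3), Gjb2 286 (239 to 326) and 88.3 (78.6 to 96.9), and Gjb6 45.5 (25.9 to 58.4) and 17.1 (12.8 to 20.4). Gjb5 had 18.8 and 21.7 CPM there, with a TP over control ratio of 1.16 (0.779 to 1.77). The class was 1 cluster, led by Lgr5, Sox9 and Tbx1 among others, with 634 control and 1621 TP cells, and its 7 markers summed to 3283 CPM in control and 3362 in TP, with 4 of 7 higher in TP. The 8 inner root sheath markers moved with the connexins in these cells, from 2804 CPM to 562, with 0 of 8 higher in TP and none at 0. In lymphocyte-like cells they summed to 4497 CPM in control and 1190.0 in TP. Other lists that moved in outer bulge-like cells were hair cortex (291 and 67.5 CPM, 0 of 8 higher), melanocyte (204.5 and 44.4, 0 of 6), dermal papilla (107 and 30.8, 0 of 8), upper hair follicle (1705 and 3163, 6 of 6), IFE spinous (2991 and 4483, 6 of 6) and cycling (1024 and 1722, 6 of 6). The part of these lists in the connexin ratios was not tested.

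Because TP cells were deeper, detection was compared in cells reduced at random to 1000 UMIs each, which left out 5362 control and 859 TP cells. In inner root sheath-like cells, Gja1 was found in 63.3% of control cells (62.0 to 64.6) and 47.1% of TP cells (43.6 to 50.6). Gjb2 was found in 26.0% of both (24.8 to 27.1 and 23.0 to 29.1), against 47.5% and 61.1% before thinning. Median depths there were 1988 and 3797 UMIs. Lymphocyte-like cells (medians 1506 and 1777) showed Gja1 in 37.2% (30.9 to 43.9) and 6.67% (1.85 to 16.2), and Gjb2 in 9.87% (6.29 to 14.6) and 1.67% (0.0422 to 8.94). Gjb5 was found in 15.8% of IFE granular-like cells of the control (13.9 to 17.8) and in 25.8% in TP (23.8 to 27.9), and before thinning in 60.8% and 84.1% at medians of 7570 and 14709 UMIs. In lymphocyte-like cells it was found in 0 of 223 control cells, which allows up to 1.35% of cells with a UMI at this depth, and in 1.67% of 60 TP cells. Gjb6 was found in 5.30% of companion layer and medulla-like cells in control (3.92 to 6.99) and 4.53% in TP (2.50 to 7.49), and in 5.18% (3.44 to 7.45) and 1.86% (1.24 to 2.68) of outer bulge-like cells.

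Members were also found together in single cells. Among outer bulge-like cells of the control, thinned as above, 51.9% of the 27 cells with a Gjb6 UMI also had Gjb2 (31.9 to 71.3), against 19.4% of the 494 without (16.03 to 23.2). In TP it was found in 7 of 28 (10.7 to 44.9%) and in 6.98% of 1476 (5.73 to 8.40). Of outer bulge-like cells with Gjb2, 79.1% had Gja1 in control (70.3 to 86.3) against 50.6% of those without (45.7 to 55.5), and in TP 58.2% (48.4 to 67.5) against 23.2% (21.0 to 25.6). Whether these cells also held inner root sheath RNA was not tested. In inner root sheath-like cells of the control, Gjb2 was found in 33.8% of cells with Gjb6 (27.6 to 40.4) and 25.6% of those without (24.5 to 26.8), while in TP the shares overlapped. For Gja1 they overlapped in both libraries, at 64.1% of control cells with Gjb2 (61.5 to 66.5) and 63.1% of those without (61.6 to 64.5). Cells of 1 library are not replicates, and these intervals describe the cells of each pool.

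Across 48 points, the 24 classes or clusters in each library, the genes closest to each member were named by Pearson's r of log2(CPM + 1) among 13321 genes. The points share their libraries and their free RNA, so r is a description. Of the 5 genes named for each member, 2 for Gja1, 3 for Gjb2, 1 for Gjb5 and 1 for Gjb6 stayed among the closest 5 by Spearman's rho. Gja1 was closest to Rpap3 (r = 0.87), Msi1 (0.84), Smarcad1 (0.83), Sox4 (0.82) and Aqr (0.81). For Gjb2 the list was Slc30a1 (0.90) and Slc39a10 (0.89), both zinc transporters, Dlx3 (0.90), a transcription factor of hair and teeth, Krt28 (0.85), an inner root sheath keratin, and Cux1 (0.85). Gjb5 was closest to Acer1 (0.88), Abca12 (0.84) and Sptlc3 (0.84), which handle the ceramides of the skin barrier, Prxl2b (0.84) and Pla2g4f (0.82), a phospholipase. Gjb6 had Psrc1 (0.80), Vps36 (0.79), Fem1b (0.79), its own neighbour Gjb2 (0.79) and Golga7b (0.79). Gja1 correlated with Gjb2 (0.76) and Gjb6 (0.70), while r with Gjb5 was -0.00. The median r over all genes was 0.15 for Gja1, 0.11 for Gjb2, -0.02 for Gjb5 and 0.16 for Gjb6.

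Several other connexin genes were also measured. Gja3, best known from the lens, had 8.89 and 4.05 CPM over all cells but 60.6 in companion layer and medulla-like cells of both libraries (ratio 1.00, 0.804 to 1.24). Gjc1 had 45.3 CPM in dermal papilla-like cells of the control and 73.3 in TP, 55.1 and 81.2 in dermal sheath cup-like cells and 42.8 and 63.7 in endothelial-like cells. Its UMIs were also counted in melanocyte-like cells, at 22.8 and 39.7 CPM, in dermal fibroblast-like cells, at 11.95 and 20.6, and in hair matrix-like cells, at 9.78 and 21.0. Over all kept cells Gjc1 had 8.94 CPM in control and 10.0 in TP. The other connexins are not compared with background here, so low levels are not read as expression. Gja4, an arterial connexin, had 39.7 and 47.1 CPM in endothelial-like cells, and Gja5, also arterial, had 11.1 there in TP (4.78 to 21.8). Gjc3, known from glia, reached 57.8 CPM in Schwann-like cells of TP (31.6 to 96.9), and Gjb1 13.2 in melanocyte-like cells of TP (7.40 to 21.8).

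Related junction genes were also read. Of 3 pannexins, another family of membrane channels, 2 had enough UMIs and 0 met the 2-fold rule, which adds the pseudocount, with Panx1 at 25.8 and 17.5 CPM and Panx3 at 1.996 and 0.670 (ratio 0.336, 0.259 to 0.431). None of 7 scaffold and turnover genes of connexins met the rule over all cells (median log2 difference -0.24, beside -0.06 for all genes). Cav1, which coats caveolae, came closest, at 20.5 and 50.7 CPM (ratio 2.47, 2.36 to 2.60, and 0.99 on the log2 scale with the pseudocount), and met it in dermal papilla-like cells (22.1 and 74.1 CPM) and in dermal sheath cup-like cells (10.6 and 73.4). None of 11 adherens and tight junction genes met it over all cells (median 0.16). Other 2-fold values were in classes where the gene was near or below its level over all kept control cells, and no expression in those classes is read from them: Nedd4 in myeloid-like cells (189 and 60.1 CPM, 463 over all control cells), Cdh3 in dermal fibroblast-like cells (31.1 and 9.10, 104 over all), Ctnnd1 in lymphocyte-like cells (99.5 and 44.7, 209 over all) and Cldn1 (97.2 over all) in dermal fibroblast-like (33.5 and 10.6), melanocyte-like (48.5 and 15.9) and myeloid-like cells (98.3 and 40.1).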

How the data were processed

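Dorsal skin cells of the control and TP libraries were measured by droplet single-cell RNA-seq. The authors ran Cell Ranger (8.0.1, per the labels) on mm10, and the deposited values are whole UMI counts per gene and barcode, without normalization. Barcodes were retained between 200 and 8000 genes and up to 10% of mitochondrial UMIs, and the 7.5% of barcodes per library most like artificial doublets (3168 control, 1503 TP) were removed. Seurat 5.3.0 in R 4.3.3 integrated the libraries by reciprocal PCA (30 components) and clustered at resolution 1, with all connexin, pannexin and listed junction genes kept out of the features. The cluster highest in Cd3e and 1 other cluster were divided further. Clusters were named from markers (score of at least 1.25, at least 3 markers detected). A name was withheld where at least as many of the 10 leading genes were markers of another class, as in clusters 4, 9 and 16. It was also withheld from shallow clusters with no leading gene among the markers of the class.

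UMIs were summed per class and divided by its total (Python 3.11.15, numpy 2.4.6, scipy 1.17.1). Intervals at 95% are exact Poisson for levels, exact conditional binomial for ratios and Clopper-Pearson for shares, and the limit of a count of 0 uses 3 counts in shares. Differences from lymphocyte-like cells combine both Poisson intervals. They assume the same free RNA share per UMI in every class, which did not hold, since some classes lay below lymphocyte-like cells. A class was compared with at least 50 cells and 50000 UMIs per library. The 2-fold call needed 50 UMIs over both libraries and a difference of 1 in log2(counts per 10000 + 0.1). Functions were tested on simulated counts. edgeR 4.0.16 gave TMM factors only.

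Named genes are the 4 members, other connexins with at least 50 UMIs in 1 library, listed genes that differed 2-fold, and the 5 genes closest to each member with at least 200 UMIs. The members, lists and rules were chosen with earlier results of these data known. Subtraction of the lymphocyte-like or myeloid-like level, weighting by the class shares of TP and the account of outer bulge-like cells were added after seeing these data. Positions and start windows are from RefSeq (GRCm38.p6), which held all 4 members. Values of some connexin genes are not reported here.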

Additional observations from a re-analysis of the deposited data

Results flagged for a closer look

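The summed level of Gjb2 differed in opposite directions between 2 follicle classes. In inner root sheath-like cells the ratio of TP over control was 1.21 (1.15 to 1.27), and in outer bulge-like cells it was 0.293 (0.263 to 0.327), with both classes above the lymphocyte-like level in both libraries. In thinned inner root sheath-like cells the ratio of shares of cells with Gjb2 was 1.00 (0.884 to 1.13), so the higher direction was not seen there. The 8 inner root sheath markers moved the same way as Gjb2 in each class, with sums of 16791 CPM in control and 24305 in TP in inner root sheath-like cells (8 of 8 higher) and of 2804 and 562 in outer bulge-like cells (0 of 8 higher), and their part in the ratios was not tested. The difference between the classes was not tested, since each condition is 1 library.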

How the results depend on the processing

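With 1 library per condition leaving out a library was not possible, and no spread between replicates limits these values. No paired analysis was possible because each group was 1 library of pooled mice. Clustering, the free RNA of each library and few UMIs in small classes limit the class values.

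Of 24 alternative ratios over all kept cells, 1 stayed within the counting interval and 23 moved. Of 49 within classes, 28 stayed, 20 moved and 1 reversed, where a reversal needs a main interval that leaves out 1. Gjb6 in inner root sheath-like cells, whose interval holds 1, also crossed 1. For the ratios over all kept cells, in the order Gja1, Gjb2, Gjb5 and Gjb6, edgeR's TMM factors gave 0.489, 0.604, 3.52 and 0.574, a limit of 5% mitochondrial counts gave 0.437, 0.537, 2.80 and 0.519, means of ln(counts per 10000 + 1) gave 0.3499, 0.432, 3.32 and 0.585, the control's cluster shares 0.612, 0.916, 1.73 and 0.728, and those of TP 0.587, 0.759, 1.68 and 0.703. Doublets kept gave 0.402, 0.490 and 3.12 for Gja1, Gjb2 and Gjb5. In inner root sheath-like cells, TMM gave 0.741 for Gja1 and 1.30 for Gjb2, the ln means 0.652, 1.2986 and, for Gjb6, 1.22, the lymphocyte-like level subtracted 1.06 (reversed) and 1.61, and the myeloid-like level subtracted 0.929 and 1.43. There, resolution 0.6 gave 1.29 for Gjb2 and the 5% limit 0.707 for Gjb6. Gjb5 in IFE granular-like cells had 2.17 with TMM, 1.99 with ln means and 1.81 above myeloid-like cells. In outer bulge-like cells, TMM gave 0.475 for Gja1 and 0.331 for Gjb2, ln means 0.332 for Gja1 and 0.502 for Gjb6, the lymphocyte-like level subtracted 0.545 for Gja1 and 0.244 for Gjb2, and the myeloid-like level subtracted 0.521 for Gja1. With a pseudocount of 1 per 10000, 7 pairs of a member and a class differed 2-fold in place of 20. With no minimum of UMIs it was 24, and with TMM factors 20, of which 18 were shared. The shares of all genes under these alternative rules were not computed. By Spearman's rho, 2, 3, 1 and 1 of the 5 genes closest to Gja1, Gjb2, Gjb5 and Gjb6 stayed among the closest 5. Subtraction, the shares of TP and the alternatives for outer bulge-like cells were chosen after seeing the data. The cause of these shifts was not tested.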
